A study of Drosophila melanogaster with 9 samples.

Results

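The gap genes are the zygotic genes that divide the early Drosophila embryo into broad regions along its head-to-tail axis. The 7 genes described here are hunchback (hb), Krüppel (Kr), knirps (kni), knirps-like (knrl), giant (gt), tailless (tll) and huckebein (hkb). They were taken by FlyBase identifier from a table of 15682 genes, and all 7 were found in it. RNA had been measured by sequencing of polyadenylated RNA from stage 5 embryos, the stage at which the syncytial embryo forms its first cell layer. Embryos had been collected over 2 h, aged for 1 h at 25 °C and sorted by hand. There were 3 biological replicate libraries of each of 3 genotypes. The non-stop libraries came from embryos mutant for non-stop (not), the ubiquitin protease of the SAGA co-activator complex. The libraries labelled ataxin-7 came from embryos mutant for Ataxin-7 (Atxn7), the subunit that anchors the deubiquitinase module to SAGA. OregonR is a wild-type laboratory strain. The alleles, the maternal genotypes and the number of embryos per library are not given in the sources used here.

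Gap genes stand between the maternal gradients and the striped pair-rule genes. Bicoid, Caudal and the Torso receptor pathway set where each gap gene is transcribed, and the gap proteins then repress each other across the borders of their domains. All 7 encode DNA-binding transcription factors. hb, Kr, kni, knrl and gt act in the trunk and head, and tll and hkb act at the 2 poles. hb differs from the others in that its RNA is also deposited by the mother. The table holds 1 value per gene, so maternal and zygotic hb RNA cannot be told apart. In bulk RNA, fewer nuclei transcribing a gene and less RNA per nucleus cannot be told apart either.

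Non-stop libraries held from 36.9 to 39.3 M reads in genes, libraries labelled ataxin-7 from 74.8 to 82.1 M and OregonR libraries from 76.4 to 90.0 M. The titles of the non-stop libraries carry the number 1190 and those of all others 1013, read here as the experiment. In every comparison with non-stop the genotype and the experiment, so read, therefore cannot be told apart. The targeted gene not had 0.608, 0.662 and 1.11 RPKM (reads per kilobase of gene, scaled to the size of the library) in non-stop embryos, against 52.3, 53.5 and 56.7 RPKM in OregonR. Atxn7 had 21.95, 25.5 and 28.0 RPKM in the libraries labelled ataxin-7, against 18.0, 19.1 and 19.8 RPKM in OregonR. Atxn7 RNA was therefore not lower in those libraries, and the genotype tags of replicates 2 and 3 do not match their titles, which were followed. Replicate 1 labelled ataxin-7 stood apart from replicates 2 and 3. The maternal RNA oskar (osk) had 93.5 RPKM in it, against 4.14 and 3.55 RPKM in the other two. Counts of called genes that rest on it are also given without it.

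The gap genes lie on 4 chromosome arms in the BDGP6 annotation and differ in the length of their introns. gt (FBgn0001150, arm X, 2427113 to 2428967, minus strand), tll (FBgn0003720, arm 3R, 30852315 to 30854400, plus strand) and hkb (FBgn0261434, arm 3R, 4345015 to 4346646, minus strand) are compact, with 75, 121 and 65 bp of intron. kni (FBgn0001320, arm 3L, 20692330 to 20695378, minus strand) has 834 bp of intron and hb (FBgn0001180, arm 3R, 8690980 to 8697822, minus strand) has 3008 bp. knrl (FBgn0001323, arm 3L, 20597141 to 20620659, minus strand) is a paralogue of kni on the same arm. Its span of 23519 bp is 83.4% intron, and 4.14% of the tested genes with an annotated span (288 of 6949) were at least as long. The median span was 2447 bp. Kr (FBgn0001325, arm 2R, 25226611 to 25231394, plus strand) lies wholly within the span of CG9380 on the opposite strand. CG9380 held from 311 to 458 reads in non-stop libraries, from 120 to 492 in libraries labelled ataxin-7 and from 463 to 693 in OregonR, whereas Kr held 521, 669 and 607 reads in non-stop and from 2192 to 28336 in the other libraries. The library kit marks strand, but the strand setting of the counting is not given in the sources used here. No other gap gene overlaps an annotated gene.

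In OregonR all 7 gap genes were present, and 5 of them averaged between 62.2 and 69.6 RPKM. gt, a leucine zipper repressor, had the highest level with 125.0, 141.1 and 123.2 RPKM. tll, an orphan nuclear receptor, averaged 69.6 ± 2.13 RPKM, Kr 65.8 ± 4.42, hkb 63.5 ± 7.42, hb 63.2 ± 5.11 and kni 62.2 ± 4.70 (SD, n = 3 each). Neighbours in that order overlapped between tll and kni, while gt lay above all of them. knrl had 3.44, 3.47 and 2.00 RPKM. The length behind the deposited RPKM follows the whole span for most genes, introns included, so the RPKM of knrl is low for its transcript. Per kilobase of exons, on the reads recovered from the table, knrl averaged 17.9 against 66.0 for hkb, the next gene above it, and gt still led with 135.4. hb moved up to the second place on this scale, with 107.1. The recovered reads cannot be split into exon and intron reads. If some were intronic, this scale would be too high, most of all for knrl and hb, which have the most intron. The shares given later rest on the same scale.

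**Figure D1:**
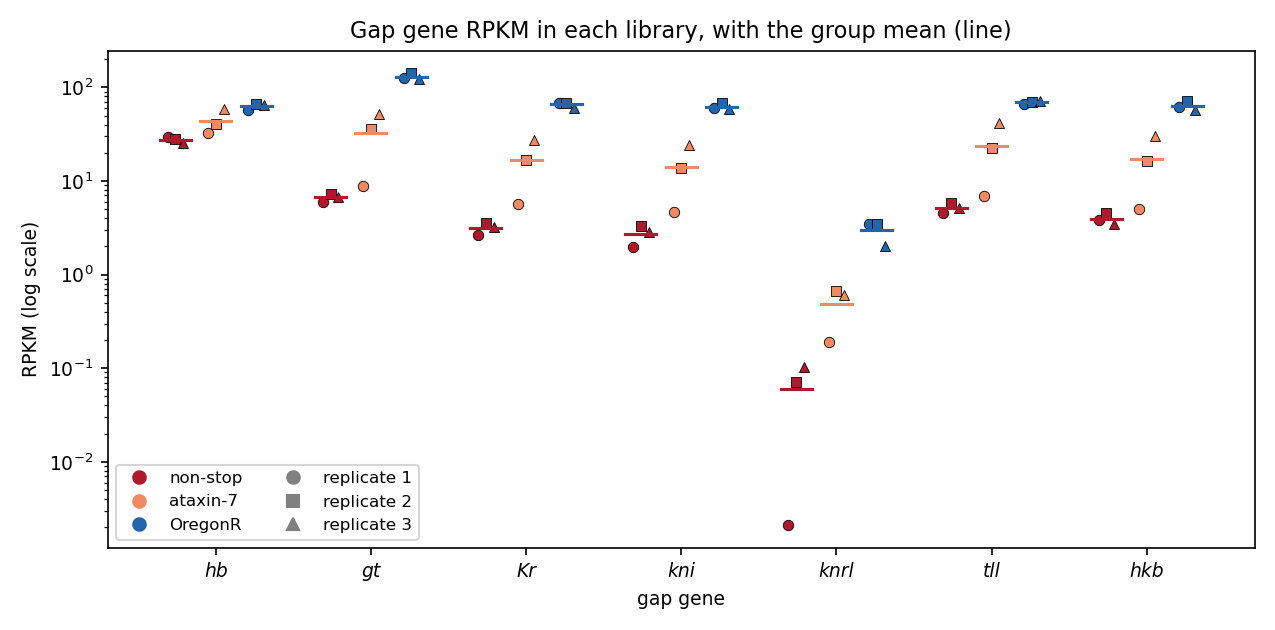
RPKM of the 7 gap genes (log axis) in each of the 9 libraries, with non-stop on the left, ataxin-7 in the middle and OregonR on the right, and a line at each group mean. The 3 non-stop libraries lie lowest for every gene, and the libraries labelled ataxin-7 spread widely, with replicate 1 nearest to non-stop.

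In non-stop embryos the RNA of all 7 gap genes was lower than in OregonR. gt, kni, Kr, hkb and tll were from 13.6 to 23.1 times lower by the ratio of the group means, whereas hb was 2.29 times lower. All 7 were tested and all 7 were called lower at an adjusted p under 0.05 (limma, Benjamini-Hochberg over 7280 genes). knrl reached the filter of 1 RPKM through the OregonR libraries alone and so had to differ, and without it 6 of 6 were called, with a median log2 fold change of −3.86. Called genes were common in this comparison: 82.7% of the genes tested were called, and 35.1% were called lower. With knrl the median was −3.71, against 0.17 over all genes tested. Log2 fold changes were taken on log2(RPKM + 1), and the added 1 makes those of low genes smaller than the true change.

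Kr, the zinc finger repressor of the central domain, had 2.65, 3.58 and 3.24 RPKM in non-stop, against 68.1, 68.7 and 60.7 RPKM in OregonR. This gave a log2 fold change of −4.01 (SE 0.10, limma adjusted p = 1.22e-06). kni, which encodes a nuclear receptor-like repressor of the abdominal region, had 1.98, 3.28 and 2.82 RPKM in non-stop, against 59.8, 67.6 and 59.1 RPKM in OregonR. The groups of both genes were far apart, and the log2 fold change of kni was −4.11 (SE 0.14, limma adjusted p = 2.23e-06). gt, which acts in an anterior and a posterior domain, had 6.03, 7.24 and 6.74 RPKM in non-stop, against 125.0, 141.1 and 123.2 RPKM in OregonR. This gave a log2 fold change of −4.09 (SE 0.08, limma adjusted p = 6.3e-07). Among all genes tested, kni, gt and Kr ranked 47, 48 and 55 from the lowest, but 119, 161 and 142 with a pseudocount of 0.1 and 179, 231 and 216 with limma-voom on the recovered reads.

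The terminal genes showed decreases of similar size. tll had 4.55, 5.75 and 5.08 RPKM in non-stop, against 67.1, 70.4 and 71.2 RPKM in OregonR, a log2 fold change of −3.53 (SE 0.09, limma adjusted p = 9.32e-07). hkb, a zinc finger factor that sets the border between mesoderm and endoderm, had 3.83, 4.54 and 3.43 RPKM in non-stop, against 62.1, 71.6 and 56.9 RPKM in OregonR. This gave a log2 fold change of −3.71 (SE 0.12, limma adjusted p = 1.83e-06). In all 5 genes every non-stop library lay below every OregonR library, as it did for 36.4% of all genes tested.

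hb and knrl stood apart from these 5. hb, a zinc finger factor that activates or represses other gap genes, had 29.4, 28.0 and 25.4 RPKM in non-stop, against 57.3, 66.9 and 65.2 RPKM in OregonR. This gave a log2 fold change of −1.17 (SE 0.08, limma adjusted p = 1.49e-05), the smallest decrease of the 7 on this scale. knrl had 0.0021, 0.0718 and 0.104 RPKM in non-stop, against 3.44, 3.47 and 2.00 RPKM in OregonR. The non-stop values rested on 2, 66 and 96 reads, against 6319, 7045 and 3507 reads in OregonR. The Poisson 95% interval of the lowest, 2 reads, ran from 0.242 to 7.22 reads and covers counting error only. The log2 fold change of knrl was −1.88 (SE 0.16, limma adjusted p = 3.76e-05) with a pseudocount of 1, but −4.29 with a pseudocount of 0.1 and −6.77 (SE 1.18, adjusted p = 0.00153) with limma-voom on the recovered reads. By the ratio of means knrl was 50 times lower, against 23.1 for kni, so its place among the 7 depends on the added 1.

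**Figure D2:**
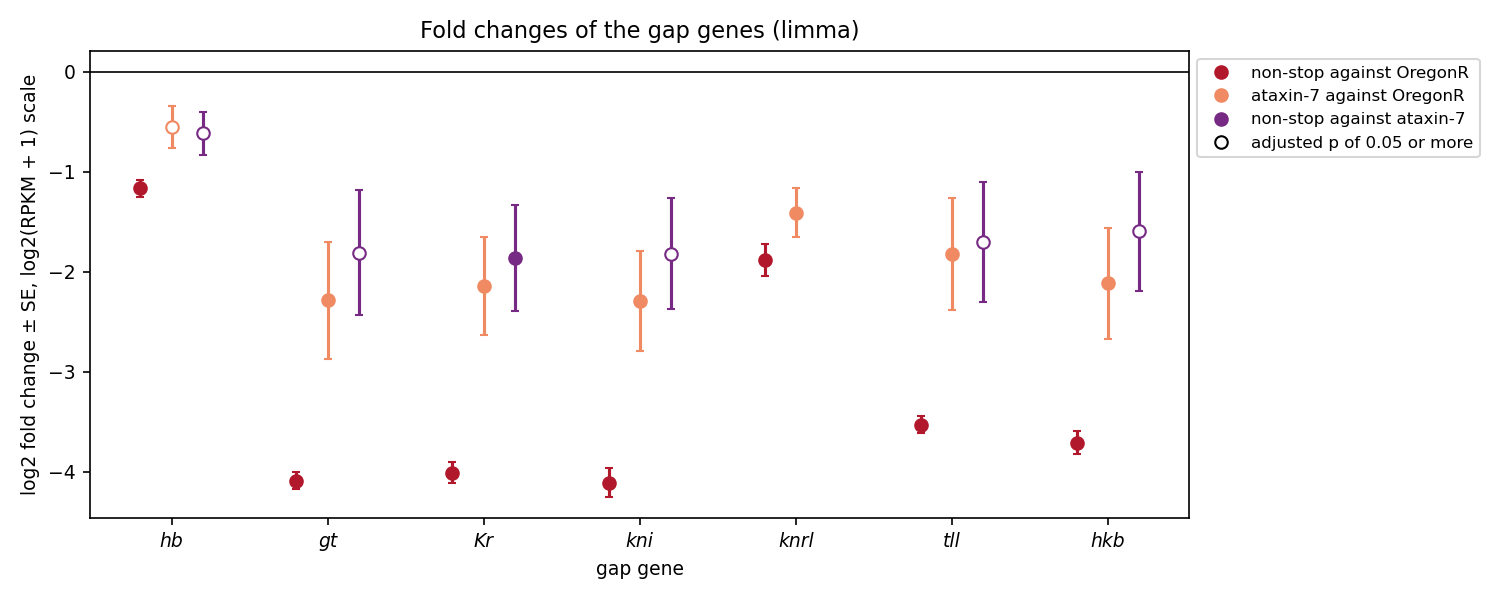
Log2 fold change of each gap gene on the log2(RPKM + 1) scale, with bars of 1 SE, for non-stop against OregonR, ataxin-7 against OregonR and non-stop against ataxin-7. Open symbols have an adjusted p of at least 0.05. In non-stop against OregonR all 7 genes are called, with hb at −1.17 and kni at −4.11, and knrl had to differ by its filter.

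In the libraries labelled ataxin-7 the gap genes lay between the other groups, and the 3 replicates differed greatly. Kr, kni, knrl, gt, tll and hkb were from 2.95 to 6.07 times lower than in OregonR by the ratio of the means, and hb was 1.44 times lower. Of the 7 genes tested, 6 were called lower (limma, Benjamini-Hochberg over 7049 genes), where 32.4% of all genes tested were called and 16.4% were called lower. Without knrl, which again passed the filter through OregonR alone, 5 of 6 were called. The median log2 fold change of the 7 genes was −2.11, against 0.05 over all genes tested. Without replicate 1 labelled ataxin-7, 6 of 7 were called lower, with a median of −1.47. knrl, which had to differ in that fit too, was among the 6, and hb was not called. Of all genes tested in that fit, 51.4% were called (30.4% lower, 21.0% higher).

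gt had 8.85, 35.6 and 52.4 RPKM in the libraries labelled ataxin-7, against 125.0, 141.1 and 123.2 RPKM in OregonR. This gave a log2 fold change of −2.28 (SE 0.59, limma adjusted p = 0.0285). Kr had 5.73, 16.9 and 27.5 RPKM there, against 68.1, 68.7 and 60.7 RPKM in OregonR, a log2 fold change of −2.15 (SE 0.49, limma adjusted p = 0.0215). In both genes replicate 1 was the lowest library, and no library labelled ataxin-7 reached the OregonR range, as was the case for 23.9% of all genes tested. kni had 4.70, 13.9 and 24.2 RPKM, against 59.8, 67.6 and 59.1 RPKM in OregonR, and a log2 fold change of −2.29 (SE 0.50, limma adjusted p = 0.0192). knrl had 0.191, 0.670 and 0.607 RPKM, against 3.44, 3.47 and 2.00 RPKM in OregonR, with a log2 fold change of −1.41 (SE 0.24, limma adjusted p = 0.0119). By limma-voom on the recovered reads knrl was at −2.76 and kni at −2.43. OregonR replicate 3 had 0.578 times the mean knrl RPKM of OregonR replicates 1 and 2. For the other 6 genes that ratio lay between 0.852 and 1.05.

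tll had 6.97, 22.3 and 41.5 RPKM in the libraries labelled ataxin-7, against 67.1, 70.4 and 71.2 RPKM in OregonR. This gave a log2 fold change of −1.83 (SE 0.56) and its adjusted p of 0.0484 by limma lay closest to the threshold. The call was lost under 8 of the 13 alternatives, in which its adjusted p ranged from 0.0037 to 0.143. hkb had 5.05, 16.3 and 30.3 RPKM, against 62.1, 71.6 and 56.9 RPKM in OregonR, a log2 fold change of −2.11 (limma adjusted p = 0.0305). hb had 32.2, 41.0 and 58.5 RPKM, against 57.3, 66.9 and 65.2 RPKM in OregonR, and was not called (log2 fold change −0.55, SE 0.21, limma adjusted p = 0.0873). For hb 2 of the 3 libraries labelled ataxin-7 lay below all OregonR libraries, and replicate 3 lay within the OregonR range. Without replicate 1 the log2 fold changes of Kr, kni, gt, tll and hkb lay between −1.70 and −1.17, and that of hb was −0.36 (limma adjusted p = 0.0795). When any OregonR replicate was left out, 0 gap genes were called by limma, although 5 of the 6 then tested had an unadjusted p under 0.05.

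Between the mutants, the non-stop libraries had the lower level of every gap gene tested, but the test passed for Kr alone. 6 gap genes were tested among 6968 genes, since knrl did not pass the filter. By the ratio of means Kr, kni, gt, tll and hkb were from 4.37 to 5.29 times lower in non-stop than in the libraries labelled ataxin-7, and hb was 1.59 times lower. Kr had 2.65, 3.58 and 3.24 RPKM in non-stop, against 5.73, 16.9 and 27.5 RPKM in the libraries labelled ataxin-7 (log2 fold change −1.87, SE 0.53, limma adjusted p = 0.045). For all 6 genes every non-stop library lay below every library labelled ataxin-7, as it did for 26.4% of the genes tested. Over all genes tested, 32.2% were called and 16.7% were called lower, so 1 of 6 is no more than that background.

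The log2 fold changes of kni, gt, tll, hkb and hb were −1.82, −1.81, −1.70, −1.59 and −0.61, with limma adjusted p from 0.0533 to 0.0881. Without replicate 1 labelled ataxin-7 all 6 genes were called lower, in a fit that called 81.1% of all genes tested (28.4% lower, 52.7% higher). Their median was then −2.38, with log2 fold changes between −2.53 for gt and −0.81 for hb (largest limma adjusted p = 0.000799, for hb). With all 9 libraries in a single fit, replicate 1 included, the same 6 were called as well (limma adjusted p from 0.013 to 0.0351). knrl was also tested in that fit and was not called (limma adjusted p = 0.0876). That fit shares an estimate of the spread over all genotypes, although their spread differed. The SE of Kr was 0.44 there, against 0.53 with the compared groups alone. knrl had 2, 66 and 96 reads in non-stop, against 359, 1388 and 1072 reads in the libraries labelled ataxin-7.

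The replicates labelled ataxin-7 differed widely for the gap genes. Replicate 2 was above replicate 1 by 2.94 to 4.03 times for Kr, kni, knrl, gt, tll and hkb, and by 1.27 times for hb. Replicate 3 was above replicate 2 by 1.43 to 1.87 times for 6 genes, whereas knrl was at 0.905 times. The summed gap gene reads, per 1 M reads in genes, were 247.2, 258 and 230.6 in non-stop, against 1398, 1508 and 1376 in OregonR. The libraries labelled ataxin-7 had 301, 583.6 and 835.3, so replicate 1 lay near the non-stop libraries and the others lay between.

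Ratios between gap genes within a library need no scaling between libraries. Of the 4 ratios computed, hb over Kr differed most from OregonR in both mutants, with a mean log2 ratio of 3.14 ± 0.29 in non-stop embryos, 1.62 ± 0.76 under the ataxin-7 label and −0.06 ± 0.18 in OregonR (SD, n = 3 each). The ranges of the 3 groups did not overlap, and within the ataxin-7 label the log2 ratio was 2.49, 1.28 and 1.09. The difference was 3.20 for non-stop and 1.68 for ataxin-7 against OregonR (exact two-sided permutation test, p = 0.1 each, 0.24 after adjustment over 12 comparisons). With 3 libraries against 3, 0.1 is the smallest p this test can give, so no ratio could pass the threshold.

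kni over gt, a pair of trunk genes, had a mean log2 ratio of −1.13 ± 0.23 under the ataxin-7 label and −1.06 ± 0.001 in OregonR, a difference of −0.07 (exact permutation p = 0.7). In non-stop it was −1.34 ± 0.24, a difference of −0.27 from OregonR (exact permutation p = 0.1), and these ranges did not overlap. The terminal pair tll over hkb stood at 0.39 ± 0.16 in non-stop embryos, 0.46 ± 0.005 under the ataxin-7 label and 0.14 ± 0.17 in OregonR. Its difference from OregonR was 0.25 for non-stop (exact permutation p = 0.2) and 0.32 for ataxin-7 (exact permutation p = 0.1). The ataxin-7 range did not overlap that of OregonR. The paralogues kni over knrl had 6.73 ± 2.78 in non-stop embryos, 4.77 ± 0.49 under the ataxin-7 label and 4.43 ± 0.40 in OregonR. The wide spread of the non-stop value came with the 2 knrl reads of replicate 1.

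**Figure D3:**
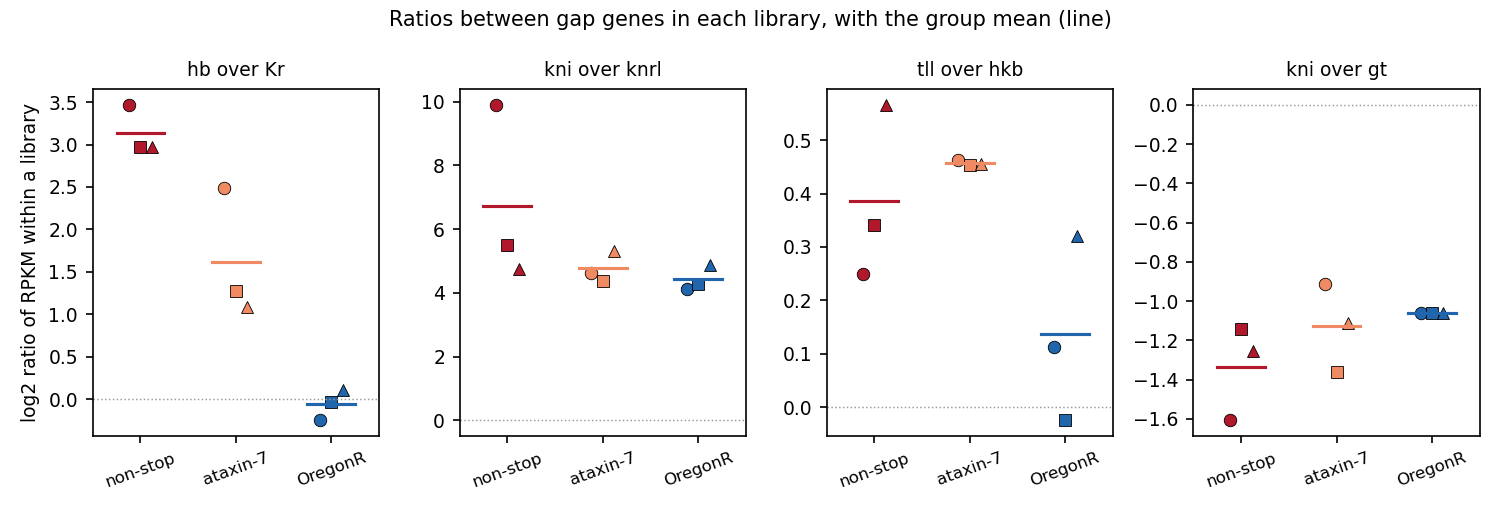
Log2 ratio of RPKM between 2 gap genes in each library, in 4 panels, with non-stop on the left, ataxin-7 in the middle and OregonR on the right. hb over Kr separates the 3 groups. By smaller amounts, tll over hkb separates ataxin-7 from OregonR, and kni over gt separates non-stop from OregonR.

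The make-up of the gap gene RNA differed with these ratios. Per kilobase of exons, hb made up 70.7%, 63.6% and 64.2% of the summed level of the 7 genes in non-stop, against 18.0%, 19.0% and 20.8% in OregonR. Under the ataxin-7 label it made up 60.5%, 36.9% and 33.6%. gt was the largest share in OregonR, with 24.3 ± 0.231%, and averaged 9.84 ± 0.816% in non-stop and 16.1 ± 5.17% under the ataxin-7 label (SD, n = 3 each). knrl was the smallest in all groups, with mean shares of 0.511%, 1.55% and 3.2% in non-stop, ataxin-7 and OregonR. By this level the order of means in non-stop was hb, gt, tll, hkb, kni, Kr and knrl, in which hkb overlapped kni and kni overlapped Kr.

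**Figure D4:**
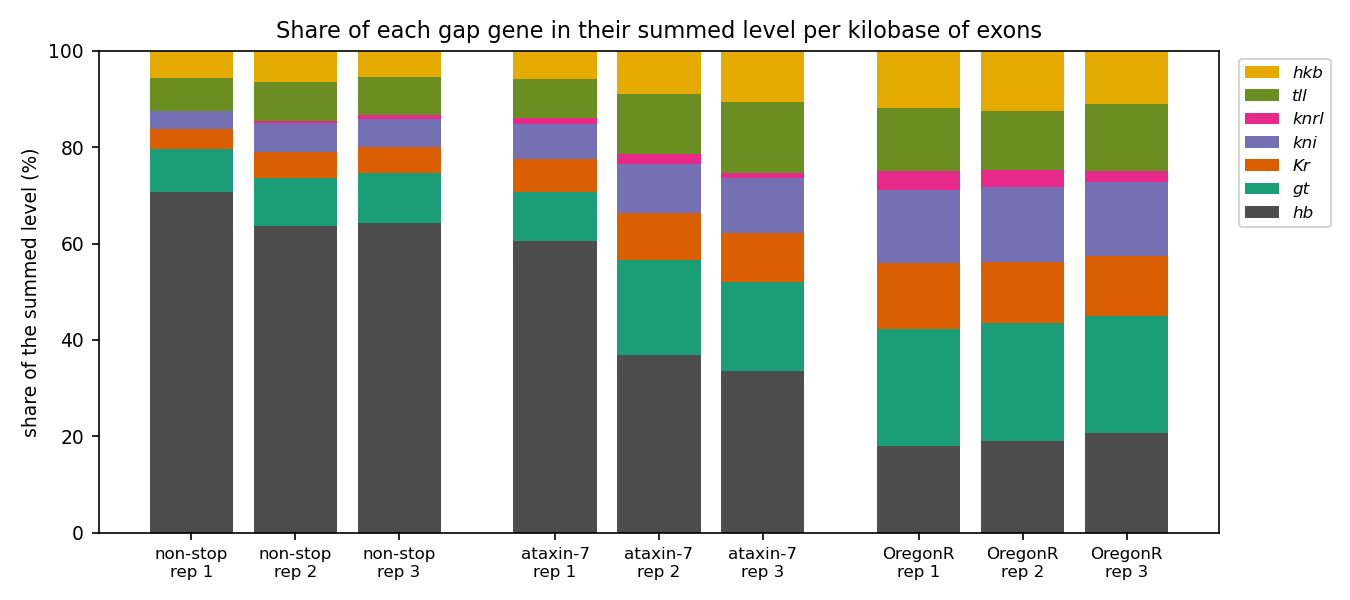
Share of each gap gene in the summed level per kilobase of exons (percent, stacked bars) in each of the 9 libraries, with non-stop on the left, ataxin-7 in the middle and OregonR on the right. hb fills from 63.6% to 70.7% of the bars in non-stop, against 18.0% to 20.8% in OregonR.

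Most of the listed regulators of the gap genes were higher in non-stop embryos, where the gap genes were lower. Of 15 listed maternal and ubiquitous regulators, 13 were tested in non-stop against OregonR. 10 were called higher (background 47.7% higher) and 2 lower, with a median log2 fold change of 0.74. The calls of caudal (cad) and nanos were lost with quantile normalization, and that of nanos also with median-of-ratios scaling. bicoid (bcd), whose protein gradient activates hb, had 55.1, 52.1 and 51.4 RPKM in non-stop, against 8.27, 10.9 and 18.9 RPKM in OregonR (log2 fold change 2.05, SE 0.25, limma adjusted p = 0.000215). bcd and osk, with a log2 fold change of 4.23, had the largest increases. grainy head (grh) and Trl, which encodes the GAGA factor, were called lower, with log2 fold changes of −2.11 and −0.44, but of these groups grh reached 1 RPKM in OregonR alone and so had to differ.

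In the libraries labelled ataxin-7, 13 of these regulators were tested, 1 was called higher (background 16.0%) and 2 were called lower. bcd had 42.6, 41.0 and 37.5 RPKM there, against 8.27, 10.9 and 18.9 RPKM in OregonR (log2 fold change 1.67, limma adjusted p = 0.0107). The 2 called lower were again grh and Trl, with log2 fold changes of −1.44 and −0.44, and the call of Trl was lost with median-of-ratios scaling. Without replicate 1 labelled ataxin-7, 3 were called in each direction, where 21.0% of all genes tested were called higher and 30.4% lower. In non-stop against ataxin-7, 12 were tested and 4 were called higher (background 15.5%). They were led by cad (0.51) and capicua (cic, 0.46), and both calls were lost with quantile normalization. Without that replicate 8 were called higher, against a background of 52.7%. Of 6 corepressors used by gap proteins, 4 were called lower in each mutant against OregonR, where 35.1% of all genes in non-stop and 16.4% in ataxin-7 were called lower. In ataxin-7 the call of gro was lost with quantile normalization and with median-of-ratios scaling. CtBP, the corepressor bound by Kr, Kni and Gt, had log2 fold changes of −1.16 in non-stop and −0.70 in ataxin-7, and HDAC1 −0.82 and −0.95. In non-stop against ataxin-7 the single corepressor called was Gug (0.34, higher), and its call was lost with quantile normalization and with median-of-ratios scaling. Without replicate 1 labelled ataxin-7, 1 corepressor was called higher and 3 lower, where 52.7% of all genes tested were called higher and 28.4% lower. Gug, an atrophin, was called higher in non-stop (0.43), but not with quantile normalization.

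Most of the listed genes downstream of the gap genes or parallel to them were lower as well. All 9 pair-rule genes, which read the gap proteins through stripe enhancers, were tested and called lower in both mutants against OregonR, with median log2 fold changes of −3.95 in non-stop and −2.22 in ataxin-7. The background called lower was 35.1% in non-stop and 16.4% in ataxin-7. odd skipped (odd) averaged 1.89 ± 1.44 RPKM in non-stop, 13.5 ± 8.90 RPKM under the ataxin-7 label and 76.2 ± 10.5 RPKM in OregonR (SD, n = 3 each). It had the largest decrease in both (−4.84 and −2.68), followed by paired (prd, −4.45) in non-stop and hairy (hry, −2.55) in ataxin-7. In non-stop against ataxin-7, 3 of 9 were called lower (background 16.7%), led by prd (−2.02) and even skipped (eve, −1.91). The third, slp2, reached 1 RPKM in ataxin-7 alone of these groups and so had to differ. All 3 calls were lost with quantile normalization, and those of prd and eve with limma-voom. Without replicate 1 labelled ataxin-7, all 8 then tested were called lower (background 28.4%). In ataxin-7 against OregonR without that replicate, all 9 were still called lower (median −1.59), as were 4 of the 6 corepressors and 4 of the head gap genes. The background called lower was then 30.4%. Of 5 head gap genes, 4 were called lower in each mutant against OregonR, led by ems (−3.39 and −2.17) and croc (−2.91 and −1.92). In non-stop against ataxin-7 limma called 0 of the 3 tested (2 at an unadjusted p under 0.05), and without replicate 1 labelled ataxin-7 it called 1 higher and 2 lower. cnc was called higher in non-stop (1.40) and was not called in ataxin-7 (0.39, limma adjusted p = 0.479). nubbin (nub), a POU gene expressed in a gap-like domain, was called lower in both (−1.61 and −1.29), but reached 1 RPKM in OregonR alone and so had to differ. The same holds in non-stop against OregonR for oc and btd among the head gap genes and slp2 among the pair-rule genes. None of the 8 homeotic genes passed the filter in any comparison, and their summed RPKM was from 0.0226 to 0.2533 in non-stop, from 0.3714 to 0.9187 under the ataxin-7 label and from 1.432 to 3.513 in OregonR.

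Markers of developmental stage moved with the gap genes, and their part in the result was not tested. All 10 early zygotic markers were called lower in non-stop against OregonR (of these groups sog reached 1 RPKM in OregonR alone), with a median log2 fold change of −3.11, and 4 of 10 in ataxin-7 (median −1.57). The background called lower was 35.1% in non-stop and 16.4% in ataxin-7. sna and twi, the mesoderm determinants, had log2 fold changes of −4.00 and −4.03 in non-stop. The summed RPKM of the 10 ranged from 365.6 to 450.0 in non-stop, from 574.9 to 2455 under the ataxin-7 label and from 3295 to 3522 in OregonR. Of 8 maternal RNAs, 3 of which are also among the regulators, 7 were called higher in non-stop (median 1.65), led by yl (4.53) and osk, where 47.7% of all genes tested were called higher. The call of nanos among them was lost with quantile normalization and with median-of-ratios scaling. In ataxin-7 2 of the 8 were called higher (background 16.0%), bcd (1.67) and plu (0.58). Without replicate 1 labelled ataxin-7, 2 early zygotic markers were called higher and 8 lower, and 3 maternal RNAs were called higher and 1 lower, against OregonR. In that fit 21.0% of all genes tested were called higher and 30.4% lower. In non-stop against ataxin-7, 3 of 9 early zygotic markers were called lower, and all 3 calls were lost with limma-voom. 1 of 8 maternal RNAs was called in each direction. There 16.7% of all genes tested were called lower and 15.5% higher. Without replicate 1 labelled ataxin-7, 9 of 9 early zygotic markers were called lower, and 7 maternal RNAs were called higher and 1 lower. The backgrounds were then 28.4% lower and 52.7% higher.

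The mean log2(RPKM + 1) of the early zygotic markers was from 4.31 to 4.64 in non-stop, against 7.38 to 7.53 in OregonR, and 4.97, 6.38 and 6.94 under the ataxin-7 label. That of the maternal RNAs was 5.08 to 5.29 in non-stop, 5.87, 3.74 and 3.69 under the ataxin-7 label and 2.82 to 3.61 in OregonR. Replicate 1 labelled ataxin-7, which had the lowest gap genes of its group, also had its lowest early zygotic and highest maternal level. Of the 7 later zygotic markers found in the table, 3 were tested. All 3 were called lower in both mutants, where 35.1% of all genes tested in non-stop and 16.4% in ataxin-7 were called lower. Among them was Ama (−4.84 in non-stop and −2.20 in ataxin-7). The other two had to differ in non-stop, and gcm also in ataxin-7, because of the groups compared they reached 1 RPKM in OregonR alone. Their summed RPKM was highest in OregonR, at 131.5, 116.7 and 77.3. The ovary markers were low: all 8 follicle cell and eggshell genes were under 1 RPKM in every library, Cp38 was at 0 in all of them, and the summed RPKM ran from 0.8492 to 0.9288 in non-stop, from 0.5758 to 0.8889 under the ataxin-7 label and from 0.5605 to 0.7397 in OregonR.

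**Figure D5:**
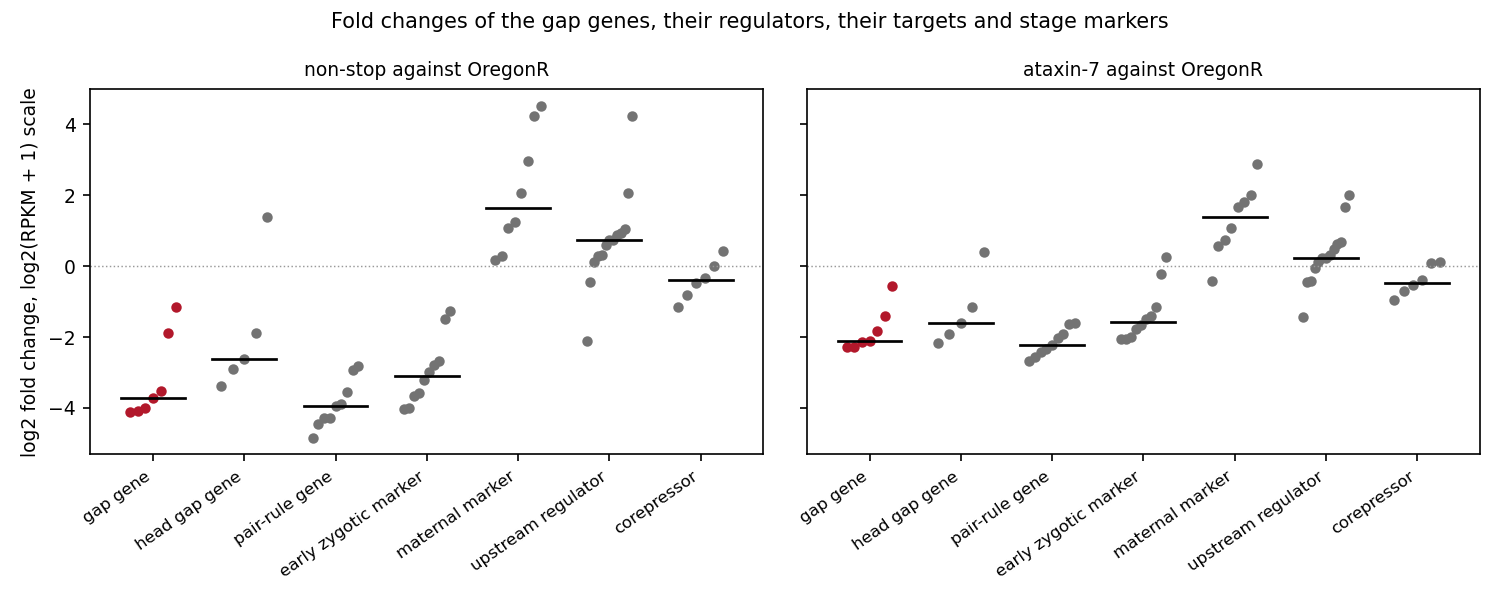
Log2 fold change on the log2(RPKM + 1) scale of the gap genes and of the genes of the fixed lists, for non-stop against OregonR and for ataxin-7 against OregonR, with a line at each median. Gap, pair-rule and early zygotic genes lie mostly below 0 and most maternal markers lie above 0.

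The genes with profiles most like each gap gene were found over the 9 libraries among 7361 genes, by the root mean square (rms) difference of centred log2(RPKM + 1). The libraries share their genotype, experiment and depth, so these are descriptions. Kr was most like D, a Sox-family transcription factor gene (rms 0.101), and Nrt (0.129). kni was most like Nrt (0.150) and brk, a repressor of Dpp targets (0.151). gt was most like term (0.157) and CG14427 (0.159). tll was most like Sry-alpha, an actin regulator of cellularization (0.127), and dunk (0.164), and hkb was most like CG7271 and term (0.102 each). hb was most like snoRNA:Me28S-C3420b (0.113) and CG42748 (0.123), and knrl was most like hth (0.076) and lncRNA:Hsromega (0.088). The snoRNA averaged 0, 0.69 and 1.65 RPKM in non-stop, ataxin-7 and OregonR, so its likeness to hb rests on the added 1. hth, at 0.106, 0.499 and 2.78 RPKM, was low like knrl, where the added 1 makes changes smaller. Among the gap genes themselves the closest pair was Kr and kni (0.091), followed by Kr and gt (0.139), kni and gt (0.141) and tll and hkb (0.157). hb differed from the 6 others by 0.446 (knrl, whose change the added 1 makes smaller) to 1.28.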

How the data were processed

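The authors deposited a table of RPKM values for 15682 FlyBase gene identifiers in 9 libraries. The submitters' processing notes name CASAVA 1.8.2, TopHat2 2.0.13, edgeR 3.14.0 and build dm3. The counting tool, its strand setting and the annotation are not given in the sources used here. Whole reads were recovered from all 13809 genes above 0 (tolerance 1e-07 read or 1e-11 relative) and showed that library sizes had been rescaled by 0.958 to 1.07. The gene length lay within 5% of the genomic span in 83.1% of 10686 genes with introns. For a gene of 1 kb, 3 reads equalled 0.0341 to 0.0767 RPKM.

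limma 3.58.1 (R 4.3.3) was run on log2(RPKM + 1) for each comparison, fitted with a mean-variance trend to the 2 groups compared, over genes of at least 1 RPKM in at least 3 libraries, and called at an adjusted p under 0.05. The method was also run on simulated data with 200 changed genes and a dispersion of 0.01 in all libraries. There all 2- and 4-fold changes and 87% to 91.5% of 1.5-fold changes were recovered. False calls were 6.45% to 12.4% of calls. The gap genes spread far more than this in the libraries labelled ataxin-7, so these rates do not carry over to them. Ratios within libraries were tested by exact permutation in Python 3.11.15 with numpy 2.4.6, and the Poisson interval was taken from scipy 1.17.1. pandas 2.3.3 was used elsewhere. The members and gene lists were chosen with earlier results of these data known. Named from each list and comparison were at most the 2 called genes with the largest change in each direction, and for each gap gene the 2 most similar genes. CG9380, the osk values by library and the following genes were named after their values had been seen. Of 2 groups compared, oc, btd, slp2, sog and gcm reached 1 RPKM in 1 group alone, and gro, nanos and cad lost a call. Symbols and positions are from BDGP6 (Ensembl release 115) and were used only for names and structure. The alternatives were another pseudocount, no filter, quantile and median-of-ratios scaling, limma-voom on reads, all 9 libraries, a replicate block and leaving out each replicate.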

Additional observations from a re-analysis of the deposited data

How the results depend on the processing

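No log2 fold change of a gap gene changed direction in any alternative. In non-stop against OregonR all 88 values of the gap genes stayed on their side of the threshold, and 6 of 6 tested were called without an OregonR replicate, where knrl did not pass the filter. Quantile normalization moved the median of all genes there by −0.121 on the log2 scale. In ataxin-7 against OregonR the 6 gap genes called became 3 without the filter (Kr, kni and knrl) and 5 with either scaling, which lost tll. When replicates were left out, 0 to 7 gap genes and 201 to 3541 of all genes were called, against 2285 with all libraries: 201, 311 and 590 without OregonR replicate 2, OregonR replicate 1 and ataxin-7 replicate 2, and 3541 without ataxin-7 replicate 1. 1 gap gene was called without ataxin-7 replicate 2 and 7 without replicate 3. In non-stop against ataxin-7, where 1 gap gene was called, 2 were called with a pseudocount of 0.1. With all 9 libraries 6 were called, and knrl, then tested, was not. 0 were called by limma without the filter (7 at an unadjusted p under 0.05), with quantile normalization (3), with median-of-ratios scaling (6) and with limma-voom on reads (1). Leaving out replicates gave 0 to 6 gap genes and 749 to 5550 of all genes, against 2241. The fits without a replicate also had fewer libraries, and the causes of these changes were not tested.

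The deviations of same-numbered replicates had correlations of 0.021, 0.061 and −0.056 in ataxin-7 and OregonR. In non-stop and OregonR they were −0.236, 0.114 and −0.110, and in non-stop and ataxin-7 0.368, −0.118 and 0.442. Those of differently numbered replicates ran from −0.092 to 0.106, from −0.193 to 0.227 and from −0.473 to 0.479, in the same order. With 3 replicates per group, these values cannot show whether same-numbered replicates were handled together. With the replicate block, 0 gap genes (7 at an unadjusted p under 0.05) and 471 genes in all were called in ataxin-7 against OregonR, 0 gap genes (5 at an unadjusted p under 0.05) and 1383 genes in all in non-stop against ataxin-7, and all 7 gap genes in non-stop against OregonR. The depth limits knrl most, at 2 reads in a non-stop library.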
